A study of Zea mays with 24 samples.

Results

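The 1 mm anthers of A619, a derivative of a maize inbred line, were compared with 1 mm anthers of the inbred line W23 on 3 of the 24 arrays of a study of maize lines. These 3 arrays were chosen by their labels and not by their values. Each array carried A619 RNA in one colour and W23 RNA in the other, and for each array a pair of different biological samples was used. The W23 line carries the bz2 mutation, a defect in anthocyanin accumulation. The same 3 W23 samples were also hybridized against 1 mm anthers of ND101/W23, the hybrid of line ND101 with W23 (3 arrays), and A619 was compared with other W23 samples in 1.5 mm anthers, juvenile leaf and mature pollen (3 arrays each). A619, ND101 and W23 are Corn Belt Dent lines without a recent common ancestor that were grown in a common field, and anthers were pooled within a sample. No treatment was applied, and a whole anther holds all its cell types, so that fewer cells of a type and less RNA per cell cannot be told apart.

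A maize anther consists of 4 lobes, in which the cells that will enter meiosis are enclosed by layers of wall cells, the innermost of which is the tapetum. At a length of 1 mm all of these layers are still dividing and meiosis has not begun. At 1.5 mm the anther stands just before meiosis, and the tapetum is on its way to becoming a secretory tissue that feeds the later meiocytes and spores. Transcripts for DNA replication, cyclins, tubulins and chromatin proteins are typical of dividing tissue. Transcripts for photosynthesis are typical of leaf, and those for cell wall loosening and the actin cytoskeleton of pollen.

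Of the 21939 probes of the array, 7900 had a value on these arrays. These are probes that hybridized above background in at least 1 comparison of the study, not necessarily in 1 mm anthers. A value is the log2 of the ratio A619 over W23, so that 1 stands for 2-fold more signal in A619 and -1 for 2-fold more in W23. The medians of the 3 arrays were 0.02, 0.02 and 0.00, and the standard deviations over all probes 0.47, 0.56 and 0.45. Between arrays the ratios of all probes correlated at 0.72 (replicates 1 and 2), 0.65 (2 and 3) and 0.59 (1 and 3), a description across probes, which are not independent replicates. The direction A619 over W23 is likely rather than certain: the dyes in the labels and in the design drawing of the study are opposite for each array. It was taken from the hybrid arrays that share the W23 samples. Shared samples alone do not fix the common sign of all ratios, and no test of the direction is given here. With the other direction, higher and lower would change places throughout. Product names are the protein matches listed for the expressed sequence tag (EST) of each probe, and they mean a similar sequence, not a proven function. Transcripts are given by their TC or EST accession or, where they have no simple accession, by the probe number of the deposited file. A product was known for 1250 of the 7900 probes. The arrays give no level of a transcript, only its ratio, and their number limits the precision. A ratio is one of probe signals, and a probe may bind the RNA of both lines unequally or bind related transcripts. The study cautions that cross-hybridization may weigh more in maize, with its polymorphic inbred lines and many duplicated genes. It still considers good binding of its probes in all lines to be likely. The part of unequal binding or cross-hybridization in the ratios was not tested here.

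In 1 mm anthers, 327 of the 7900 probes (4.14%) differed between A619 and W23. A probe was called when its mean ratio differed from 0 at an adjusted p under 0.05 in limma and its 3 ratios had the same sign. The calls divided almost evenly, with 166 probes higher in A619 (2.10%) and 161 lower (2.04%). The higher probes had a median log2 ratio of 1.25 (2.37-fold) and the lower probes of -1.22 (2.33-fold). At least a 2-fold difference was reached by 112 of the higher and 110 of the lower probes, a log2 ratio of at least 2 in either direction by 32 and 27, and of at least 3 by 6 and 8. The smallest difference called was 0.58 among the higher and -0.57 among the lower probes. A mean ratio of at least 2-fold without a call was found at 85 probes, of which 82 had the same sign on all 3 arrays. Over all 7900 probes, 3363 (42.6%) had 3 ratios of the same sign.

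The 3 arrays did not show the differences to the same extent. Replicate 2 had the ratio farthest from 0 for 241 of the 327 called probes, replicate 1 for 56 and replicate 3 for 30. The median absolute ratio of the called probes was 1.48 on replicate 2, 1.15 on replicate 1 and 1.05 on replicate 3. Leaving out replicate 1, 2 or 3 left 48, 44 and 75 calls, of which 46, 40 and 68 were among the 327.

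Most of the called probes were without a product name. Of the 1250 probes with a known product 27 were called (2.16%; 13 higher and 14 lower), and of 6280 probes outside the transcript tables of the study 292 (4.65%). Both extremes were such unnamed probes. Probe 6141 had log2 ratios of 3.56, 4.19 and 3.92, a mean of 3.89 ± 0.32 (SD, n = 3 arrays; 14.8-fold higher in A619; adjusted p = 0.00537 in limma). Probe 9285 had ratios of -6.07, -7.49 and -3.82, a mean of -5.79 ± 1.85 (55.5-fold lower; adjusted p = 0.00323 in limma). Every array thus gave both probes a difference of more than 3 on the log2 scale, with the highest spread at the lower probe.

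Among transcripts with a product, 3 of the higher ones belong to a panel of 25 transcripts with quantitative RT-PCR primers. TC270572, similar to a rice hypothetical protein, was the highest of all named transcripts, at ratios of 2.83, 3.78 and 2.70 (mean 3.10 ± 0.59, adjusted p = 0.0113 in limma). Probe 16865 matches ribosomal protein L15, a protein of the large ribosomal subunit. Its ratios were 2.24, 2.98 and 1.89 (mean 2.37 ± 0.56, adjusted p = 0.00769 in limma). Probe 14410 matches a late embryogenesis abundant (LEA) protein, one of a family known from drying seeds and from water stress. It was higher at 1.38, 1.57 and 0.95 (mean 1.30 ± 0.32, adjusted p = 0.0238 in limma). These transcripts can be identified by their RT-PCR primers, taken from the primer table of the study. The primers are shown because no probe sequence is used here, from 5′ to 3′ and in lower case throughout, with no base singled out.
TC270572 forward: tgcctgattacatattgccaac
TC270572 reverse: gtgagaagagaacactcacacaga
ribosomal protein L15 forward: ctcggcaggcaagaagtt
ribosomal protein L15 reverse: ccaggcaccaataaatgtcc
LEA protein forward: ggtgctctgttgttttgcatt
LEA protein reverse: gacccacaaaagaaccagga

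Transcripts of protein turnover and metabolism were also found among those higher in A619. A ubiquitin-conjugating enzyme (probe 7013), one of the enzymes that pass ubiquitin on to proteins to be degraded, had ratios of 2.12, 3.34 and 2.78 (mean 2.75 ± 0.61, 6.71-fold, adjusted p = 0.00186 in limma). TC262905 is similar to an inosine-uridine nucleoside N-ribohydrolase, an enzyme that releases the base from nucleosides, and had 1.54, 2.35 and 1.79 (mean 1.89 ± 0.41, adjusted p = 0.0113 in limma). Both enzymes thus exceeded 2-fold on each array. Cysteine synthase (TC273920), which makes cysteine from O-acetylserine and sulfide, was higher by less, at 0.79, 1.36 and 1.13 (mean 1.09 ± 0.29, adjusted p = 0.0218 in limma). A weak match to the fly homeobox protein invected (TC264716) gave 0.93, 1.85 and 1.50 (mean 1.43 ± 0.46, adjusted p = 0.00762 in limma). The match is too weak for a role in maize to be given. Bystin (TC272110), in yeast and human cells a factor of ribosome assembly, was higher at 0.93, 0.86 and 0.59 (mean 0.79 ± 0.18, adjusted p = 0.0211 in limma). AW042205.1, similar to a rice protein of unknown role, lay at the edge of the threshold with 0.83, 1.76 and 0.77 (mean 1.12 ± 0.56, adjusted p = 0.05 in limma).

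Further transcripts higher in A619 have matches that say little of a maize gene. TC279186, a match over 5% of a capsid protein, had ratios of 1.56, 2.15 and 2.43 (mean 2.05 ± 0.44, adjusted p = 0.00576 in limma). TC256120 matches 5% of cytochrome b, the mitochondrially encoded core of respiratory complex III, and had 1.60, 2.30 and 1.92 (mean 1.94 ± 0.35, adjusted p = 0.00321 in limma). TC252349, of unknown product, had 1.56, 1.95 and 2.16 (mean 1.89 ± 0.30, adjusted p = 0.0358 in limma). In each of these, the lowest of the 3 arrays was replicate 1. Probe 3067, similar to a rice hypothetical protein, had 1.23, 0.96 and 1.08, the tightest of the named higher transcripts (mean 1.09 ± 0.14, adjusted p = 0.01 in limma). Through the annotation of the array, 84 probes with a value are tied to maize loci. Of these In2-1 (LOC542388) was the only one called. In2-1 is known as a gene induced by herbicide safeners, compounds that protect maize from herbicides. Its ratios were 1.13, 1.93 and 1.78 (mean 1.61 ± 0.43, 3.06-fold, adjusted p = 0.0149 in limma).

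The transcripts lower in A619 included enzymes of carbon and lipid metabolism. NADP-dependent malic enzyme (TC260239), which turns malate into pyruvate and gives NADPH, had ratios of -1.92, -4.27 and -2.32 (mean -2.84 ± 1.26, 7.14-fold lower, adjusted p = 0.0246 in limma). Aminoalcoholphosphotransferase (TC261622), which catalyses the last step in the synthesis of the membrane lipids phosphatidylcholine and phosphatidylethanolamine, had -2.59, -1.99 and -2.05 (mean -2.21 ± 0.33, 4.63-fold lower, adjusted p = 0.0015 in limma). Malic enzyme spread widely between arrays and lost its call with a dye term, while aminoalcoholphosphotransferase had the smallest adjusted p of the named transcripts. A lipid-transfer protein (TC259358), weakly similar to one of wheat, was lower at -0.84, -1.77 and -0.59 (mean -1.07 ± 0.62, adjusted p = 0.0499 in limma). Such proteins carry lipids between membranes or to the cell surface and are abundant in anthers of many plants. Acyl-peptide hydrolase (TC264169), a peptidase that removes acylated residues from the end of peptides, was lower at -1.72, -1.83 and -1.27 (mean -1.61 ± 0.30, adjusted p = 0.00537 in limma).

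Proteins of folding, modification and cell division were also among the lower transcripts. Protein N-terminal asparagine amidohydrolase (TC274177), which converts an asparagine at the start of a protein into aspartate, had ratios of -2.42, -2.48 and -1.57 (mean -2.16 ± 0.51, adjusted p = 0.00743 in limma). Prefoldin subunit 5 (TC262816), part of a complex that hands unfolded actin and tubulin to the chaperonin, had -2.53, -0.90 and -2.06 (mean -1.83 ± 0.84, adjusted p = 0.0157 in limma). On replicate 2 its difference was thus less than 2-fold. The spindle checkpoint relative mitotic arrest defective 2B (probe 10597) was lower at -1.13, -0.96 and -1.10 (mean -1.06 ± 0.09, adjusted p = 0.00537 in limma), with the smallest spread of all transcripts named here as called. Calmodulin (TC259877), the calcium sensor, was lower by 1.62-fold, at -0.50, -0.86 and -0.73 (mean -0.70 ± 0.18, adjusted p = 0.04 in limma). Its call was lost in 5 of 12 other settings that kept all replicates, among them the replicate block for shared W23 samples (adjusted p = 0.0501 in limma). A gag-pol polyprotein (TC272617), the coding product of retrotransposons, had -1.60, -2.30 and -1.77 (mean -1.89 ± 0.37, adjusted p = 0.00537 in limma). Copies of retrotransposons are alike, and the ratio of this probe may not belong to 1 locus.

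Other lower transcripts carried no informative name. TC262975 (-3.39, -4.07 and -0.98; adjusted p = 0.0233 in limma) and TC263478 (-3.60, -3.38 and -0.81; adjusted p = 0.0314 in limma) were strongly lower on replicates 1 and 2 and much less on replicate 3. TC258155, similar to an Arabidopsis protein, had -1.72, -3.61 and -2.40 (mean -2.58 ± 0.96, adjusted p = 0.0165 in limma), and TC276057, which is listed under the name FalseDAD1, -1.34, -2.34 and -1.28 (mean -1.65 ± 0.60, adjusted p = 0.00777 in limma). Both were lower on every array by more than 2-fold. TC248102, of unknown product, had -1.99, -2.87 and -1.41 (mean -2.09 ± 0.74, adjusted p = 0.0079 in limma), and probe 19971, similar to a rice protein, -1.10, -1.75 and -1.45 (mean -1.43 ± 0.33, adjusted p = 0.0238 in limma).

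**Figure D1:**
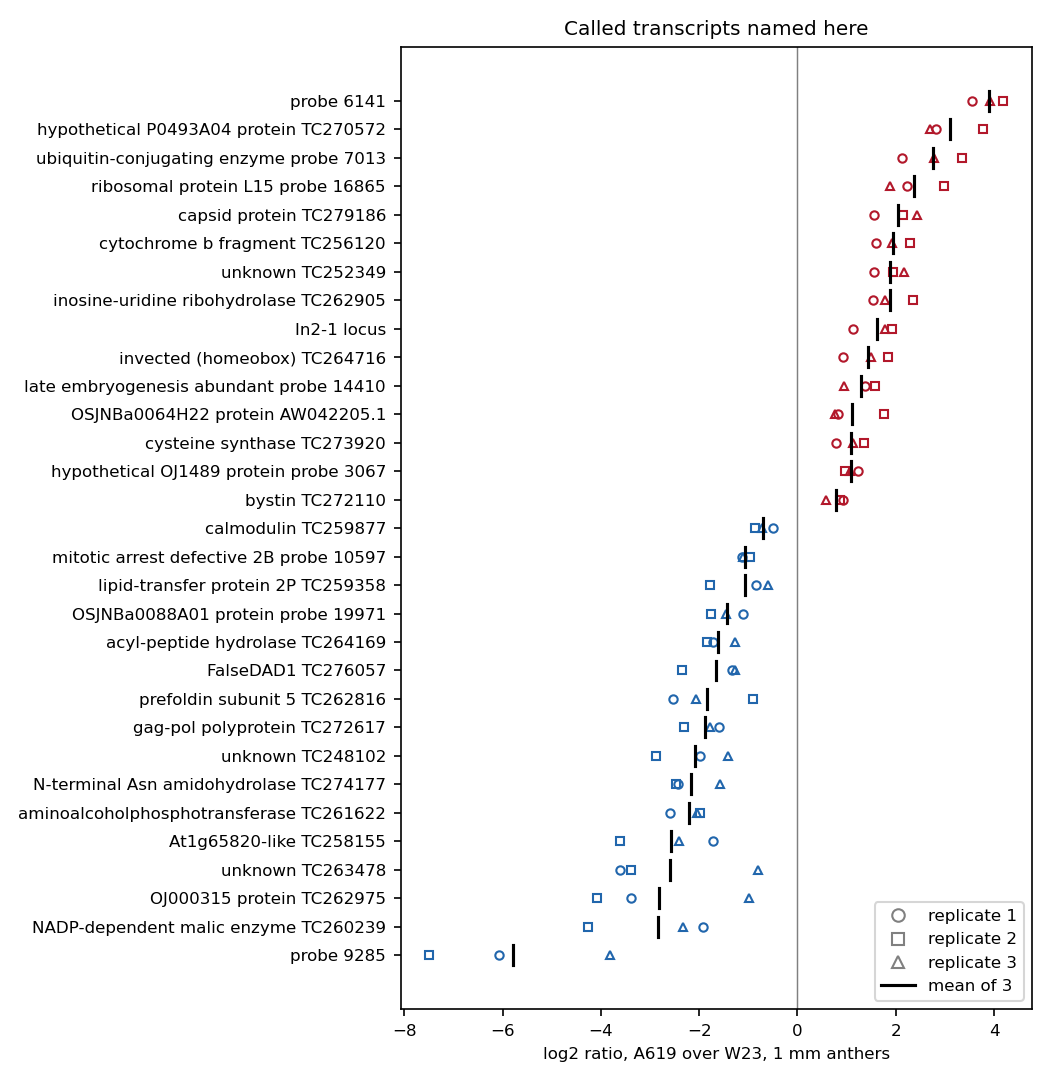
Log2 ratio A619 over W23 (horizontal axis) on the 3 arrays of 1 mm anthers for the called transcripts named by rule, 1 row each, with 1 symbol per replicate and a bar at the mean (red, higher in A619; blue, lower). All 3 symbols of a row lie on one side of 0, from probe 6141 at a mean of 3.89 to probe 9285 at -5.79.

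Several transcripts differed by a similar amount without a call. An endo-1,4-beta-glucanase (TC262031), an enzyme of the cell wall, had ratios of 2.03, 3.10 and 2.39 (adjusted p = 0.137 in limma). It and TC264982, similar to a nucleoporin of the nuclear pore, at 1.45, 1.00 and 1.15 (adjusted p = 0.273 in limma), were picked out after their values were seen. All 6 of these ratios were at or above 1.00. In the fit the spread of a probe is estimated on the 3 A619 and the 3 hybrid arrays together, so that a wide spread in the hybrid counts against a call in A619. The MADS-box locus zmm29 was represented by 2 probes that did not give the same picture, at -0.72, -1.41 and -0.99 (adjusted p = 0.0681 in limma) and at 0.58, -0.38 and -0.53. The glutathione S-transferase locus gst10 had 1.03, 1.26 and 0.97 (adjusted p = 0.0927 in limma). Both loci were also picked out after their values were seen.

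Of the 25 transcripts of the RT-PCR panel, 24 had a value at 1 mm. Beside TC270572, ribosomal protein L15 and the LEA protein, none was called at 1 mm, so that 3 of 24 (12.5%) were called against 4.14% of all probes. The study describes RT-PCR of this panel on W23 and ND101/W23 and does not name A619 there. The members of the panel were picked by the study, and its share of calls is not independent evidence. Ubiquinol-cytochrome C reductase (TC259322), a subunit of respiratory complex III, had the lowest ratios of the panel, at -0.89, -1.55 and -1.09 (adjusted p = 0.0951 in limma; 0.0202 with the replicate block, where it was called as lower). Photosystem I subunit III (TC248243) had 0.77, 0.29 and 0.44, the photosystem II W protein (TC270718) 0.81, 0.32 and 0.30, and ribosomal protein L3 of plastids (TC270449) 0.62, 0.58 and 0.25. These 3 plastid products were above 0 on every array without passing the test. Histone H2A (TC247876) had 0.12, -0.22 and 0.04, and the histone acetyltransferase (TC273423) 0.03, 0.00 and 0.16. Both chromatin products thus lay close to 0. Tubulin beta-6 (TC248696), a building block of microtubules, had -0.33, -0.73 and -0.35 (adjusted p = 0.371 in limma). The zinc finger and ERD15 transcripts are described with the 1.5 mm stage, and the remaining 12 members had means between -0.17 and 0.43. The median of the panel was 0.157, beside 0.02 over all probes.

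**Figure D2:**
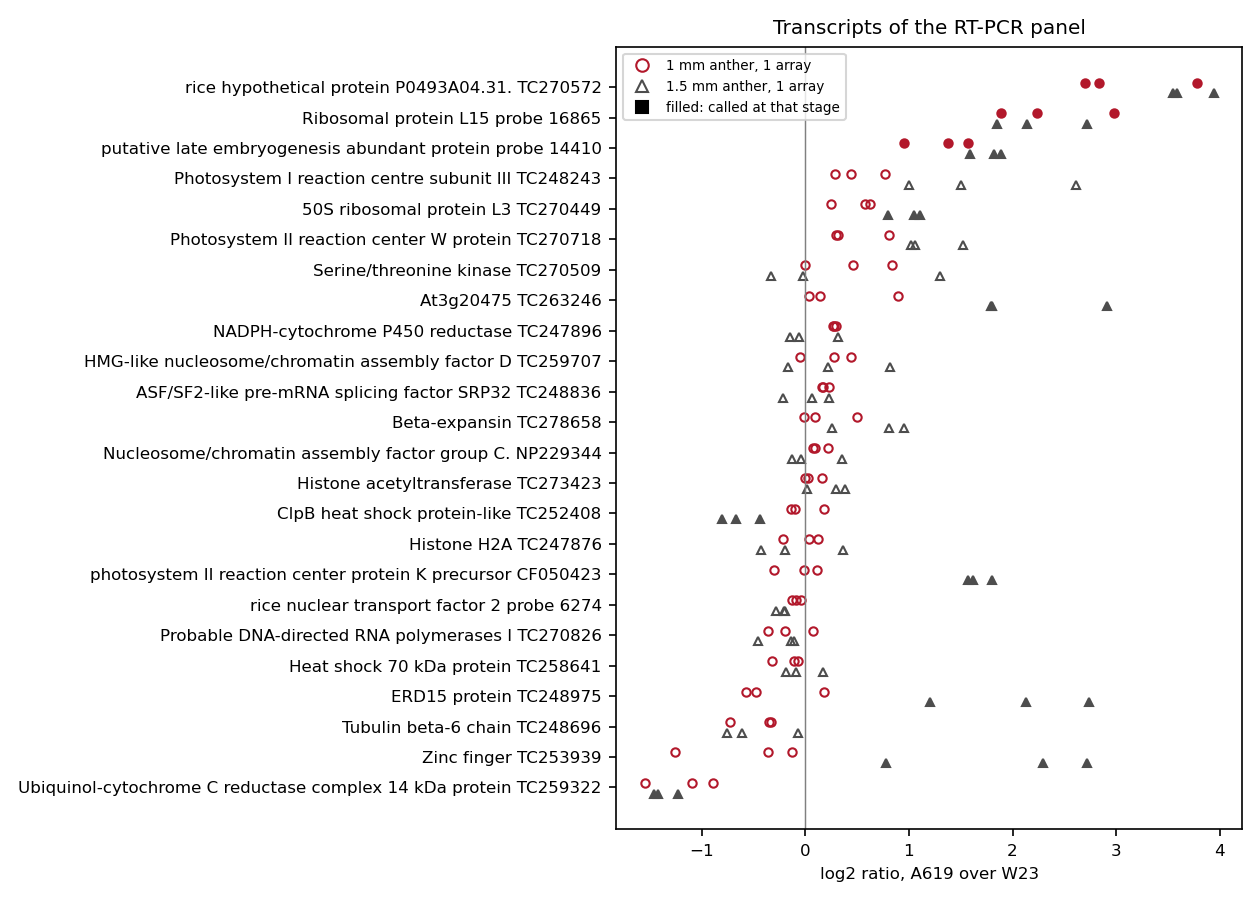
Log2 ratio A619 over W23 of the 24 measured transcripts of the RT-PCR panel, with the 3 arrays of 1 mm anthers as circles and the 3 arrays of 1.5 mm anthers as triangles (filled where the transcript was called at that stage). Filled circles are found only for TC270572, ribosomal protein L15 and the LEA protein, and the ERD15 and zinc finger transcripts show triangles to the right of all their circles.

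The cell cycle list of the study holds 69 measured probes, among them tubulins, kinesins, calmodulins, heat shock proteins, proteasome subunits and phosphatases. Only calmodulin was called at 1 mm, so that 0 were higher and 1 was lower (1.45%, beside 4.14% of all probes). With the replicate block 3 were higher and 0 lower. The median of the list was 0.023, and its members ranged from -0.70 to 0.89. The upper end was held by the tubulin beta-7 chain (TC248700), at ratios of 1.24, 1.09 and 0.35 (adjusted p = 0.0929 in limma). The catalytic subunit of phosphatase PP2A (TC270319), a regulator of mitotic kinases, had 0.50, 0.52 and 1.36 (adjusted p = 0.0903 in limma). FtsZ1 (TC265937), the tubulin relative that divides plastids, had 0.62, 0.46 and 0.95 (adjusted p = 0.0559 in limma). All 3 were above 0 on each array but missed the threshold. Of 30 probes whose product names point to cell division, DNA replication or repair, only mitotic arrest defective 2B was called, and of 31 microtubule and 16 chromatin probes none was called. At an unadjusted p under 0.05, 1066 of all 7900 probes would pass in limma.

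The lists of other roles, read beside the 4.14% of all probes, had 0 to 3 calls each. They draw only on probes named in the lists of the study, of which 2.16% were called. Most of the named probes are leaf-specific or pollen-specific transcripts, which were not classed as hybridizing at 1 mm. A list with 0 calls thus does not show that its role was unchanged. Among 51 probes for photosynthesis and plastids, 45 for transport, 41 for protein kinases and phosphatases, 56 for redox enzymes, 24 for the cell wall, 28 for RNA processing and 16 for actin, none was called at 1 mm. Translation (34 probes) had 1 higher, ribosomal protein L15. Ubiquitin and protein breakdown (49 probes) had 1 higher, the ubiquitin-conjugating enzyme. Transcription factors (44 probes) had 1 higher, the weak homeobox match, and the mitochondrion (17 probes) 1 higher, the cytochrome b match. Lipids and sterols (19 probes) had 0 higher and 3 lower (15.8%), the aminoalcoholphosphotransferase, the lipid-transfer protein and the acyl-peptide hydrolase, the last of which is a peptidase. Carbon metabolism (21 probes) had 1 lower, malic enzyme, and chaperones (17 probes) 1 lower, prefoldin subunit 5. The medians of these lists lay between -0.063 and 0.097.

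The study also lists transcripts found in a single sample type, that is, with signal above background in only that type. The list for 1 mm anthers holds 218 transcripts with a value, of which 2 were higher in A619 and 1 lower (1.38%, beside 4.14% of all probes). With the replicate block the counts were 3 and 4. The higher ones were the nucleoside ribohydrolase and TC252349, and the lower one was the gag-pol polyprotein. The median of the list was 0.00, and -0.060, -0.085 and 0.110 on the 3 arrays. The members ranged from -1.89 to 2.51. The list was drawn from the same samples, so that its values are no independent evidence.

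The list for 1.5 mm anthers holds 126, of which 10 were lower in A619 at 1 mm and 0 higher (7.94%, beside 4.14% of all probes in either direction and 2.04% lower). Beside malic enzyme, acyl-peptide hydrolase, the lipid-transfer protein, mitotic arrest defective 2B, FalseDAD1, TC262975, TC263478 and TC258155, these were TC257158 and probe 6184, both of unknown product (-2.05 and -1.88). The list as a whole was not shifted, with a median of -0.007 and array medians of 0.040, -0.015 and -0.080, but its highest member reached only 0.90. By the definition of the list its members were not classed as hybridizing at 1 mm, and the signal behind these 10 ratios cannot be read from log2 values. The count was 0 without replicate 1, 0 without replicate 2 and 4 without replicate 3.

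Transcripts of leaf and pollen serve as markers of tissues other than the anther. Of 863 measured leaf-specific transcripts, 8 were higher and 6 lower (1.62%), with a median of 0.037, and with the replicate block 14 and 12. The ubiquitin-conjugating enzyme, cysteine synthase, the homeobox match, AW042205.1 and aminoalcoholphosphotransferase, TC274177, TC248102, prefoldin subunit 5 and probe 19971 belong to this list. A further member is TC251349, similar to a 2-on-2 hemoglobin, at ratios of 1.06, 1.18 and 0.89 (mean 1.04, adjusted p = 0.01 in limma), which was chosen after its values were seen. Of 330 pollen-specific transcripts 4 were higher and 0 lower (1.21%), with a median of 0.082. These 4 were the capsid and cytochrome b matches, probe 3067 and bystin. The pollen list had array medians of -0.06, 0.05 and 0.23, so that its shift was not the same on the 3 arrays. Members of both lists were likewise not classed as hybridizing at 1 mm. Calls were less than 2 in 100 on both lists, below the 4.14% of all probes, and what part leaf or pollen RNA has in the named transcripts was not tested.

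The age of the anthers was checked with 16 transcripts that the study plots as markers of anther stages. None of the 16 was called at 1 mm, and their means lay between -0.63 and 0.31. The male fertility protein Ms45 (TC276985), which is made in the tapetum at later stages, had ratios of 0.22, 0.00 and -0.48. The marker with the lowest mean, probe 3673, had 0.46, -3.45 and 1.10, so that its sign rested on replicate 2, and AW163847.1 likewise spread from -1.05 to 1.17. The marker with the highest mean, TC273116, had 0.27, 0.59 and 0.07, above 0 on each array. The median of the 16 markers was 0.080 on replicate 1, -0.355 on replicate 2 and -0.010 on replicate 3. On replicate 2, which had the farthest ratio for most called probes, this median was thus lowest. Markers of both stages enter the median, so that it cannot show the age of the anthers. The part of stage in the calls was not tested.

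**Figure D3:**
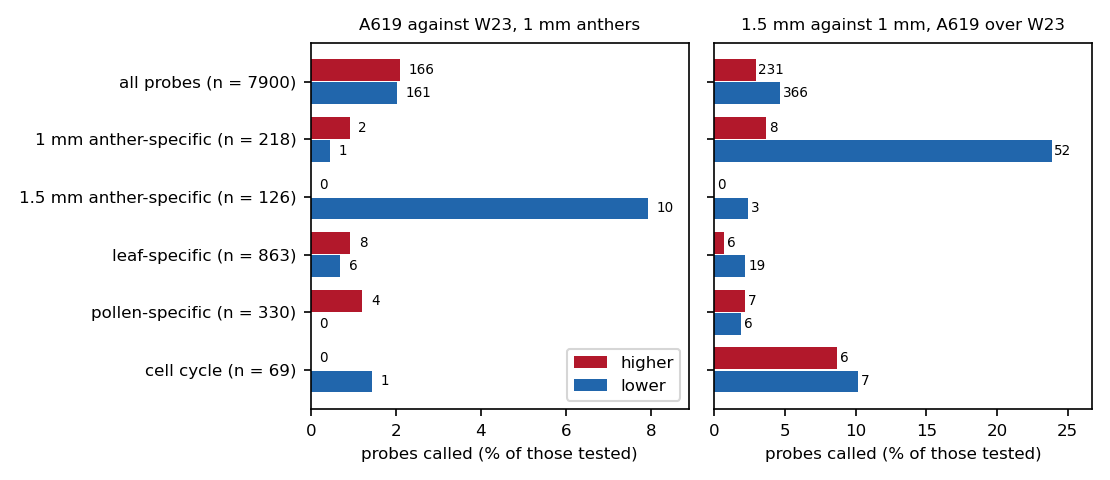
Share of probes called as higher and lower (horizontal axis, percent of those tested; counts at the bars) for all probes and 5 lists of the study. On the left, A619 against W23 in 1 mm anthers; on the right, the ratio A619 over W23 in 1.5 mm against 1 mm anthers. The n beside a name is for the left panel and is lower on the right for all probes (7876), leaf (857) and pollen (319) transcripts. The longest bars are the 10 lower transcripts of the 1.5 mm anther list on the left and the 52 lower ones of the 1 mm anther list on the right.

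The hybrid ND101/W23 was measured against the same W23 samples at 1 mm, and 557 probes (7.05%) differed between it and W23. Since both lines share W23, their ratios are set side by side, and the difference between the lines was tested by itself. The W23 samples drop out of the mean difference, but without a block their variation stays in its spread. Without a block the difference was called at 58 of 7900 probes (0.734%), of which 36 were higher (0.456%) and 22 lower (0.278%) in A619 than in the hybrid. The smallest difference called was 1.07 on the log2 scale. Of the 58, 31 were also called between A619 and W23, and 8 had a known product. With the shared W23 sample of each replicate number as a block, 172 probes were called (104 higher and 68 lower), among them all 58. Without replicate 1 the count was 23, and without replicate 2 or 3 it was 0 in limma, where 844 and 684 probes had an unadjusted p under 0.05.

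In 2 named transcripts called without a block, the hybrid was lower than both A619 and W23. The v-SNARE VTI13 (TC249924), a protein of vesicle fusion, had ratios to W23 of 0.16, 0.27 and -0.67 in A619 and of -2.26, -4.20 and -3.88 in the hybrid. The difference was 3.37 ± 0.51 (standard error, adjusted p = 0.038 in limma). TC271583, similar to a rice hypothetical protein, had 0.34, -0.12 and -0.24 in A619 and -2.03, -3.29 and -3.49 in the hybrid (difference 2.93 ± 0.39, adjusted p = 0.0299 in limma). In both, all A619 arrays were near W23 and above every hybrid array.

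In the other named transcripts called without a block, A619 was farther from W23 than the hybrid was. The ubiquitin-conjugating enzyme probe 7013 had 0.28, 0.14 and -0.27 in the hybrid, 2.70 ± 0.32 below A619 (adjusted p = 0.0277 in limma). The cytochrome b match TC256120 had 0.02, -0.60 and -0.62, a difference of 2.34 ± 0.27 (adjusted p = 0.0209 in limma), and the capsid match TC279186 had -0.11, 0.49 and -0.65, a difference of 2.14 ± 0.34 (adjusted p = 0.0436 in limma). For these 3 transcripts no hybrid array came above 0.49. The homeobox match TC264716 had -0.59, -0.34 and -0.36 in the hybrid (difference 1.86 ± 0.26, adjusted p = 0.032 in limma), and probe 3067 had -0.16, -0.07 and -0.64 (difference 1.38 ± 0.21, adjusted p = 0.0413 in limma). Of the 8 called probes with a known product, aminoalcoholphosphotransferase (TC261622) was the one that was lower in A619 than in the hybrid. The hybrid had -0.57, -0.46 and -0.99, so that A619 lay lower by a difference of -1.54 ± 0.24 (adjusted p = 0.0431 in limma). Probe 6184, of unknown product, was also lower, with a mean of -1.88 in A619 and 0.49 in the hybrid (difference -2.37, adjusted p = 0.038 in limma). Probe 9285, the lowest in A619, had -0.44, 0.38 and 0.39 in the hybrid (difference -5.90 ± 0.81, adjusted p = 0.0306 in limma). With the replicate block, 8 more of the probes named by rule were called between the lines. Lower in A619 were TC274177 (difference -2.34, adjusted p = 0.0502 without and 0.00904 with the block in limma), TC263478 (-3.08), malic enzyme (-2.09), prefoldin subunit 5 (-1.89) and acyl-peptide hydrolase (-1.24). Higher in A619 were In2-1 (1.65), ubiquinol-cytochrome C reductase (2.51) and photosystem I subunit III (2.33), the last 2 with hybrid ratios far below 0 (-2.64, -4.03 and -4.39, and -0.81, -2.00 and -2.67).

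**Figure D4:**
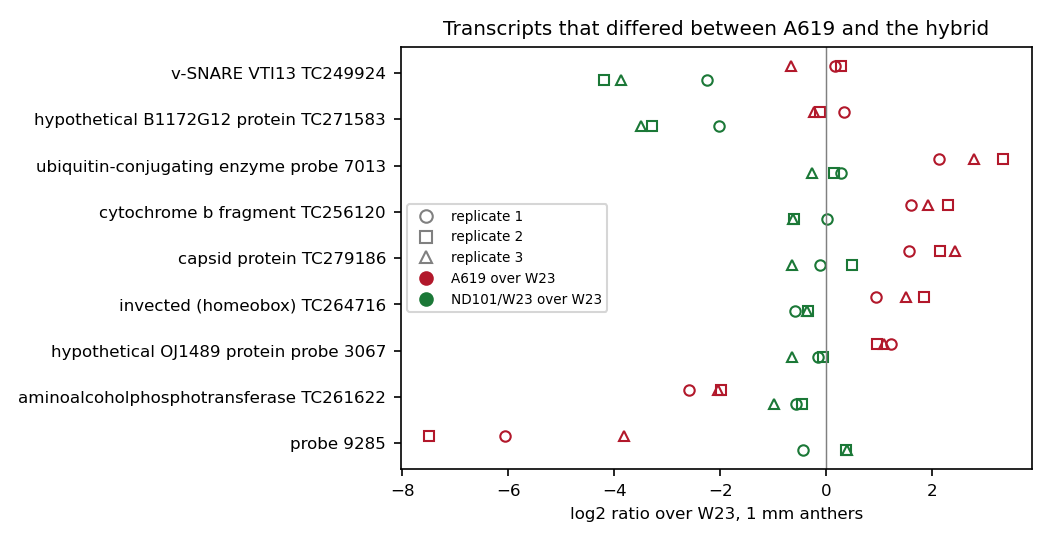
Log2 ratio over W23 in 1 mm anthers on each array of A619 and of ND101/W23, for the named transcripts whose ratios differed between the lines; symbols mark the replicate number, which the lines share through the W23 sample. The colours do not overlap in any row, with differences of the means from 3.37 (v-SNARE) to -5.90 (probe 9285).

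Other transcripts of A619 had similar ratios in the hybrid. TC270572 had 1.95, 4.16 and 4.37 there, and the difference between the lines was -0.39 ± 0.63 (adjusted p = 0.823 in limma). Ribosomal protein L15 (probe 16865) had 1.70, 2.38 and 3.27 (difference -0.08 ± 0.43), and the LEA protein (probe 14410) had 0.88, 1.11 and 2.05 (difference -0.05 ± 0.33). For the panel transcripts called at 1 mm, the arrays of both lines overlapped. The nucleoside ribohydrolase TC262905 had 1.19, 2.04 and 2.64 (difference -0.06 ± 0.39), the unnamed probe 6141 had 2.56, 3.55 and 5.41 (difference 0.05 ± 0.64), and TC248102 had -2.12, -2.94 and -2.49 (difference 0.43 ± 0.39). Since the smallest difference called was 1.07, these values do not show that the lines are alike, and the W23 samples enter the ratios of both.

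The next stage, 1.5 mm anthers, was measured with other samples of A619 and W23, and 1602 of 7873 probes (20.3%) differed between the lines there, with 682 higher in A619 (8.66%) and 920 lower (11.7%). Of the 327 probes called at 1 mm, 326 were measured at 1.5 mm and 261 were called there as well, 260 of them in the same direction. These 261 made up 80.1% of the calls at 1 mm and 16.3% of those at 1.5 mm. The only probe called in opposite directions was probe 19311, at -0.61 and 2.21. Probes higher at 1 mm had a median of 1.44 at 1.5 mm, and those lower a median of -1.34. Malic enzyme (TC260239), for instance, had -4.43, -3.87 and -4.22 at 1.5 mm, with a narrower range than at 1 mm. In2-1 had 2.36, 2.74 and 1.55, and aminoalcoholphosphotransferase (TC261622) -2.96, -2.86 and -2.82. The lipid-transfer protein (TC259358), in contrast, had -0.98, 1.25 and 0.16 at 1.5 mm and was not called.

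The ratio A619 over W23 itself differed between the stages at 597 of 7876 probes (7.58%), with 231 higher at 1.5 mm (2.93%) and 366 lower (4.65%). Relative to replicate 1, the dyes were swapped on replicate 3 at 1 mm but on replicates 2 and 3 at 1.5 mm. Dye was thus not balanced between the stages, no dye term was fitted here, and the part of dye in these differences was not tested. Of the 597, 27 were among the calls at 1 mm, a share close to the 4.14% called over all probes. Without replicate 1 the balance was the other way, with 112 higher and 35 lower of 147, and without replicate 2 or 3 the counts were 235 and 5. Transcripts with a ratio near 0 at 1 mm were found at both ends. The polyribonucleotide nucleotidyltransferase CD651129, an enzyme of RNA decay in organelles, had 0.32, 0.16 and 0.07 at 1 mm and 2.07, 1.95 and 2.71 at 1.5 mm (difference 2.06 ± 0.22, adjusted p = 0.00916 in limma). The ERD15 transcript (TC248975), an early gene of the drought response, had 0.18, -0.57 and -0.48 at 1 mm and 1.20, 2.74 and 2.13 at 1.5 mm (difference 2.31 ± 0.38, adjusted p = 0.0188 in limma). TC253939, a zinc finger protein, had -0.13, -0.36 and -1.26 and then 0.78, 2.72 and 2.29 (difference 2.51 ± 0.50, adjusted p = 0.0287 in limma). In all 3, every 1.5 mm array was above every 1 mm array. The largest difference of a named transcript was that of TC250848, similar to an Arabidopsis protein, with -0.10, 0.34 and -1.34 and then 1.47, 3.10 and 3.65 (difference 3.11 ± 0.60, adjusted p = 0.0267 in limma). The photosystem II K protein (CF050423), encoded in the plastid, went from 0.11, -0.30 and -0.01 to 1.57, 1.62 and 1.80 (difference 1.73, adjusted p = 0.00593 in limma). No other of the 49 photosynthesis and plastid probes tested was called between the stages.

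At the other end, the ratio was lower at 1.5 mm. The ammonium transporter 1-1 (TC254853), which takes up ammonium, had -0.14, -0.18 and 0.44 at 1 mm and -3.30, -1.83 and -3.29 at 1.5 mm (difference -2.85 ± 0.40, adjusted p = 0.0123 in limma). The beta subunit of the mitochondrial processing peptidase (TC259823), which cleaves the targeting peptide of imported proteins, had 0.18, -0.11 and 0.29 and then -1.86, -1.73 and -2.04 (difference -2.00 ± 0.17, adjusted p = 0.00418 in limma). The groups of arrays did not overlap in either. The shaggy-like kinase TC259714, a relative of the kinase GSK of animals, went from -0.31, -0.92 and -0.03 to -2.33, -2.05 and -1.75 (difference -1.62, adjusted p = 0.0163 in limma), and the carboxyl-terminal proteinase TC251804 from -0.78, -0.78 and -2.14 to -3.58, -3.86 and -2.28 (difference -2.01, adjusted p = 0.0495 in limma).

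Of the lists examined, that of 1 mm anther transcripts had the highest share of calls between the stages. Of its 218 members, 52 were lower at 1.5 mm than at 1 mm in the ratio A619 over W23 and 8 higher (27.5% called, beside 7.58% of all probes). The median difference was -0.415, beside -0.023 over all probes. It was -0.462, -0.422 and -0.390 without replicate 1, 2 or 3, while the calls among the 218 were then 13, 26 and 1. By the definition of the list its members were not classed as hybridizing at 1.5 mm, and the signal behind the ratios of that stage cannot be read from log2 values. The list was drawn from the same samples. The members named next were chosen after their values were seen.

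Single members among these 52 have products known from DNA replication, the cell cycle and nuclear import. No theme of the 52 is drawn from them, and none was tested. The list for cell division, DNA replication and repair had 4 of 30 lower between the stages and 0 higher. That is 13.3%, beside 4.65% of all probes lower. The list holds some of the members named next and is no separate evidence. A small subunit of replication factor C (TC273833), which loads the sliding clamp onto DNA, had 0.02, 0.12 and 0.26 at 1 mm and -1.02, -1.70 and -1.46 at 1.5 mm (difference -1.53, adjusted p = 0.0122 in limma). A cdc2 kinase (CD985164), of the family that drives the cell cycle, had 0.12, -0.23 and 0.32 and then -1.32, -0.72 and -1.05 (difference -1.10, adjusted p = 0.0263 in limma). Cyclin A2 (TC266433), a partner of such kinases, had 0.70, 0.07 and 0.18 and then -0.44, -1.12 and -0.57 (difference -1.03, adjusted p = 0.0433 in limma). Of the nuclear import receptors, importin beta (TC252060) had -0.04, -0.21 and 0.52 and then -1.34, -1.10 and -1.60 (difference -1.44, adjusted p = 0.0163 in limma), and importin alpha 2 (TC248973) had -0.03, 0.01 and 0.42 and then -1.02, -1.17 and -1.0 (difference -1.20, adjusted p = 0.0123 in limma). In each of these 5, all arrays of 1.5 mm lay below all arrays of 1 mm. A subunit of the 26S proteasome (TC260197) had 0.07, -0.09 and -0.14 and then -1.42, -1.29 and -1.55 (difference -1.37, adjusted p = 0.00916 in limma), and a C-24 sterol methyltransferase (TC260031), of the synthesis of plant sterols, -0.02, 0.09 and 0.15 and then -1.13, -1.17 and -1.39 (difference -1.30, adjusted p = 0.0101 in limma). A few members were higher at 1.5 mm, such as a transcriptional adaptor (TC271569) with 0.03, 0.01 and 0.02 and then 0.94, 1.35 and 1.34 (difference 1.19, adjusted p = 0.0123 in limma), and a DNA methyltransferase (TC263214) with -0.15, 0.04 and 0.03 and then 0.66, 0.49 and 0.64 (difference 0.62, adjusted p = 0.04 in limma).

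**Figure D5:**
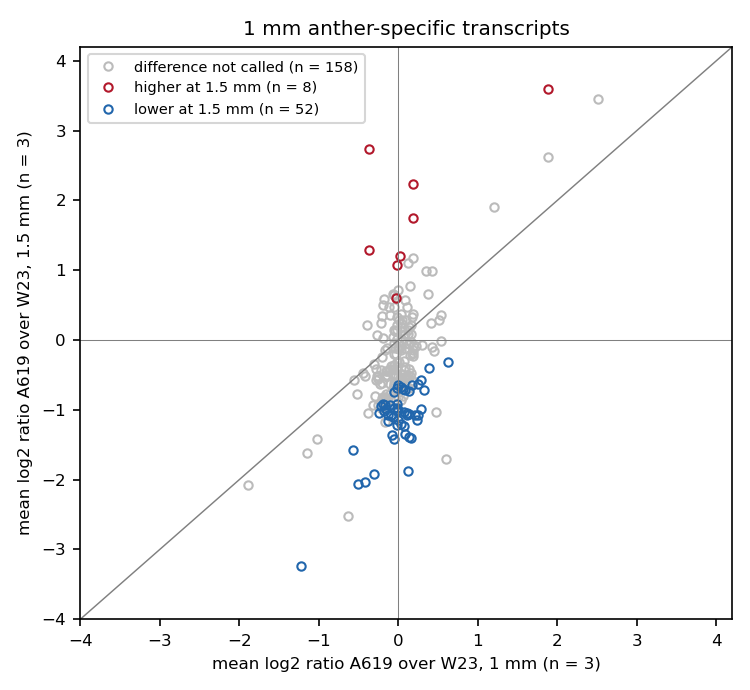
Mean log2 ratio A619 over W23 in 1.5 mm anthers (vertical axis) against that in 1 mm anthers (horizontal axis) for the 218 transcripts of the 1 mm anther list, 3 arrays a stage; the diagonal marks equal ratios. The 52 transcripts called as lower at 1.5 mm lie below the diagonal, most of them near 0 at 1 mm, and the 8 called as higher lie above it.

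The cell cycle list differed between the stages in both directions, with 6 of 69 members higher at 1.5 mm and 7 lower (18.8%, beside 7.58% of all probes) and a median difference of -0.007. The higher members were microtubule and chaperone products: tubulin alpha-3 (TC259057, difference 1.08), tubulin alpha-1 (TC268728, 1.05 at 1 of its probes), another alpha-tubulin (TC258041, 0.79), a kinesin (TC266049, 1.00) and both probes of heat shock protein 82 (TC259108, 0.73 and 0.72). Tubulin alpha-3, for example, had -0.65, -0.31 and -0.41 at 1 mm, all on the W23 side, and a mean of 0.62 at 1.5 mm. The lower members were the proteasome ATPases TC259630 (-1.01 and -0.91 at 2 probes) and TC249048 (-1.02 and -0.83 at 2 probes), nucleoside diphosphate kinase (TC269927, -1.13), phosphatase PP1 (TC258946, -0.98) and FtsZ1 (TC265937, -1.09). At 1 mm the probes of both proteasome ATPases lay between 0.03 and 0.27 in their means. Members represented by 2 probes share a transcript and are not independent. Without replicate 1, 2 or 3 the 13 calls fell to 1, 2 and 0.

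In juvenile leaf and mature pollen the called probes of 1 mm anthers were followed with still other samples. In leaf, 3315 of 7873 probes (42.1%) differed between A619 and W23, with 1889 higher (24.0%) and 1426 lower (18.1%). There 217 of 324 measured probes were called as well, 198 in the same direction and 19 in the opposite one. They made up 67.0% of the calls of 1 mm anthers and 6.55% of those of leaf. Among the opposite ones, cysteine synthase (TC273920) had a mean of 1.09 in 1 mm anthers and of -2.11 in leaf, and probe 19971 of -1.43 and 2.12. The ubiquitin-conjugating enzyme (3.68 in leaf) and malic enzyme (-3.42 in leaf) kept their direction. In pollen, 121 of 7865 probes (1.54%) differed, with 50 higher (0.636%) and 71 lower (0.903%). Only 15 of 324 were called there (4.63% of the calls of 1 mm anthers and 12.4% of those of pollen), 13 in the same direction and 2 in the opposite one. None of the named called transcripts of 1 mm anthers was called in pollen. The medians in pollen were 0.12 for probes higher at 1 mm and -0.10 for those lower.

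Of the 327 probes, 302 were called in at least 1 other tissue and 25 only in 1 mm anthers (9 higher and 16 lower). Among all probes tested, leaf alone had 42.1% called, the 1.5 mm stage 20.3% and pollen 1.54%. The share of all probes called in at least 1 of these tissues was not counted. The 302 and 25 therefore do not show that the calls at 1 mm were shared more or less often than those of other probes. In all 4 tissues 8 probes were called in the same direction, 7 higher and 1 lower, and none of them has a product name. The highest was probe 8530, with mean ratios of 2.40 at 1 mm, 2.95 at 1.5 mm, 1.87 for leaf and 1.62 for pollen. In the same order, probe 10486 had 2.01, 3.30, 1.71 and 2.65. The single lower probe, 14874, had -0.79, -1.52, -1.74 and -1.36.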

How the data were processed

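Total RNA of 1 mm anthers was amplified, labelled with 2 dyes and hybridized by the authors. Images were read with Agilent Feature Extraction (version not given in the sources used here). The deposited log2 ratios had been normalized by the authors within each array on rank-invariant probes and by loess, and scaled among the triplicates. Such scaling can change the size of the ratios of an array, and the spreads of the 3 arrays still differed in the deposited values. Saturated spots had been removed, and probes had been kept when they hybridized above background in at least 1 comparison of the study. A probe with a value can therefore lie near background in 1 mm anthers. Signal levels and sequences of the probes are not analysed here. Probe numbers were joined to the transcript tables of the study at a constant offset, at which 22 of 22 ESTs known from both sources matched. Of 204 probes of the platform's gene table, 193 matched a RefSeq gene and 84 had a value.

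The 6 arrays of 1 mm anthers (3 of A619 and 3 of ND101/W23) were fitted in limma 3.58.1 (R 4.3.3), with a mean for each line and Benjamini-Hochberg adjustment over all 7900 probes. The stages were compared in a fit of 6 A619 arrays without a dye term. The methods of the study use Rank Products, which was run as an alternative with 100 permutations. Other alternatives were the 3 arrays alone, all 24 arrays, scaled or centred arrays, probe filters, a dye term, a replicate block and leaving out each replicate. The fits were tested on simulated data. Tables and figures were made with Python 3.11.15, numpy 2.4.6, pandas 2.3.3 and matplotlib 3.10.9.

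By the design of the study, an A619 array and the hybrid array of that number were hybridized with one W23 sample. Deviations from the group means correlated at 0.328, 0.198 and 0.31 between same-numbered arrays, and at -0.228 to -0.0932 between others.

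The text names the highest and lowest called probe, the 10 highest and 10 lowest called probes with a product, all measured members of the RT-PCR panel or their range, called members of lists (up to 10 or 4), and the 5 highest and lowest of each contrast. Exceptions are stated as chosen after their values were seen. The members, lists and rules were chosen with earlier results of these data known. Lists by role collect words of the product names, over the probes named in the transcript tables of the study. Replicates are separate biological samples of a field, and p-values measure the spread between them.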

Additional observations from a re-analysis of the deposited data

Results flagged for a closer look

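The ratios over W23 in 1 mm anthers differed between A619 and the hybrid, by the test of the difference in limma without a block, for the probes that follow. The differences (A619 minus hybrid, log2) were 3.37 for TC249924, 2.93 for TC271583, 2.70 for probe 7013, 2.34 for TC256120, 2.14 for TC279186, 1.86 for TC264716, 1.38 for probe 3067, -1.54 for TC261622, -2.37 for probe 6184 and -5.90 for probe 9285, of which probes 6184 and 9285 have no known product.

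Between 1.5 mm and 1 mm anthers the ratio A619 over W23 differed by the same kind of test for 16 named transcripts. The differences (1.5 mm minus 1 mm, log2) were 3.11 for TC250848, 2.51 for TC253939, 2.31 for TC248975, 2.13 for TC279186, 2.06 for CD651129, 1.81 for TC263246, 1.73 for CF050423, 1.71 for TC252349, 1.68 for TC256120, 1.52 for AW065766 and 0.84 for probe 3067 on the higher side. On the lower side they were -2.85 for TC254853, -2.01 for TC251804, -2.00 for TC259823, -1.62 for TC259714 and -1.61 for TC261490. TC279186, TC256120 and probe 3067 are in both sets.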

How the results depend on the processing

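The 327 calls of A619 against W23 became 603 when only the 3 A619 arrays were fitted (298 higher and 305 lower) and 706 with arrays scaled to one median absolute deviation (348 and 358). They were 44 to 75 with each replicate left out in turn, and the split was 30 higher to 18 lower in the absence of replicate 1 but 19 to 25 in that of replicate 2. In the other settings the count lay between 222 (2-fold minimum) and 469 (replicate block), with 285 by Rank Products, of which 214 were among the 327. The difference from the hybrid was called at 58 probes, at 172 with a replicate block and at 0 to 23 with a replicate left out. The difference between stages was called at 597 probes, at 364 with a replicate block (167 higher and 197 lower) and at 5 to 235 with a replicate left out. Direction was followed for the named transcripts only, and no called value among them turned its direction. For A619 against W23 a call needs 3 ratios of the same sign, so that leaving out a replicate could not turn it. Values near 0 or with wide spread that were not called turned their direction in some settings, such as probe 3673 (-0.63, and 0.78 without replicate 2). Same-numbered arrays of the 2 stages correlated in their deviations at -0.0528, -0.107 and 0.109, so that they share only a number. Calls within lists, a set of settings chosen after seeing the data, fell likewise: with a replicate left out, 0 to 1 of 3 on the 1 mm anther list, 0 to 4 of 10 on the 1.5 mm anther list, 3 to 5 of 14 on the leaf list, 0 to 1 of 4 on the pollen list and 0 to 2 of 3 on the RT-PCR panel. With all replicates kept, the 3 calls on the 1 mm anther list became 6 on 24 arrays, 7 with a replicate block, 8 by Rank Products, 9 on the 3 arrays and 11 with scaled arrays, and the 14 on the leaf list became 23 to 31 in 4 settings. Of 31 named called transcripts, 23 were called in every setting that kept all replicates, 2 (probe 7013 and TC261622) in every setting that left one out, and 14 in none of the latter. With the dye term, the calls of malic enzyme, AW042205.1, the lipid-transfer protein, TC252349 and calmodulin were lost. The cause of these changes was not tested, except that leaving out a replicate leaves fewer arrays. Signal over background is not known from log2 ratios, which limits what can be said of weakly hybridizing probes.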
